A study of Mus musculus with 6 samples.

Results

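The report concerns 9 genes that mark group 2 innate lymphoid cells (ILC2), a lymphocyte type without rearranged antigen receptors. They were chosen by symbol, and all 9 were found among the 30733 gene symbols listed for each library. They comprise the transcription factors Gata3 and Rora, the alarmin receptors Il1rl1 and Il17rb, the effectors Il4, Il5, Il13 and Areg, and the surface receptor Klrg1. Expression was measured by RNA sequencing of bone marrow cells that carry the label of haematopoietic stem cell, from wild-type mice given a 5 Gy dose of irradiation to the whole body. Cells labelled MHCII-hi (3 libraries) were set against cells labelled MHCII-lo (3 libraries), a division by MHC class II. Both groups were wild type and irradiated, so no comparison with unirradiated cells is made. The sources used here do not give age, sort gates or time after irradiation. Nor do they say whether replicates came from separate animals, so p-values cover the variation among these 6 libraries alone, and that may be technical.

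ILC2 respond to cytokines that damaged epithelium and stroma release. Interleukin-33 is bound by the product of Il1rl1 (also called ST2), interleukin-25 by the product of Il17rb, and thymic stromal lymphopoietin by a receptor that shares a chain with the interleukin-7 receptor. GATA3 and the nuclear receptor RORα are required for the lineage in mice, and activated cells secrete the type 2 cytokines and the growth factor amphiregulin. Mouse ILC2 can carry MHC class II on their surface, and marrow holds ILC2 progenitors. None of the 9 genes is private to ILC2: T cells use Gata3, Rora and Il4, basophils and mast cells use Il1rl1 and Il4, and NK and T cells use Klrg1.

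Values are in FPKM (fragments counted per kilobase and per unit of depth) and so can be compared between genes. The estimated depth ran between 20400000 and 32600000 fragments in the 6 libraries. The sort was visible in the RNA: the class II genes H2-Eb1, H2-Ab1 and H2-Aa together with Cd74 summed to values of 563 to 581 FPKM in MHCII-hi and of 21.2 to 21.5 FPKM in MHCII-lo. Of 10 stem cell markers, Mecom, Fgd5 and Hoxb5 reached at most 0.28 FPKM in any library, while Kit stood at 15.0 ± 0.101 FPKM in MHCII-hi and 12.6 ± 0.0751 FPKM in MHCII-lo (SD, n = 3). With Kit, Ly6a and Cd34 had the smallest limma p of that list, in which 4 of 5 tested genes rose and 1 did not pass. Over all 12110 genes whose mean reached 1 FPKM, limma at a threshold of 0.05 on the Benjamini-Hochberg adjusted p found 58.6% different between the groups, 25.5% being higher and 33.1% lower in MHCII-hi. That balance depended on scaling: once immunoglobulin genes were left out of it, 40.6% were higher and 17.5% lower. This background is high, so a call says little by itself about an ILC2 gene.

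Of the 9 ILC2 genes, 3 reached the minimum of 1 FPKM: Il17rb, Il1rl1 and Il4. All 3 rose in MHCII-hi cells, beside 25.5% of all tested genes, or 40.6% with immunoglobulin genes left out of the scaling, where the 3 rose too. The other 6 lay below the minimum and were absent from that test. They are given by their values in each library and by a fit with no minimum, in which 28.4% of 27171 genes differed, 14.6% being higher and 13.8% lower in MHCII-hi (21.8% and 7.44% with immunoglobulin genes left out of the scaling). Of the 15061 genes under the minimum, 8.50% were higher and 1.67% lower. In that fit Gata3, Rora, Il13 and Klrg1 rose, while Areg and Il5 did not pass. The exact permutation p was 0.1 for Gata3, Rora, Il13 and Klrg1 and 0.2 for Areg. By the exact permutation test none of the 6 passed, as its smallest p with 3 libraries against 3 is 0.1. The calls for Gata3, Rora, Il13 and Klrg1 thus rest on the fit with no minimum. For 7 of the 9 genes every MHCII-hi library was above every MHCII-lo library, as it was for 21.3% of the 27171 genes. The reverse held for 18.4%, so the groups were apart in 39.7%.

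**Figure D1:**
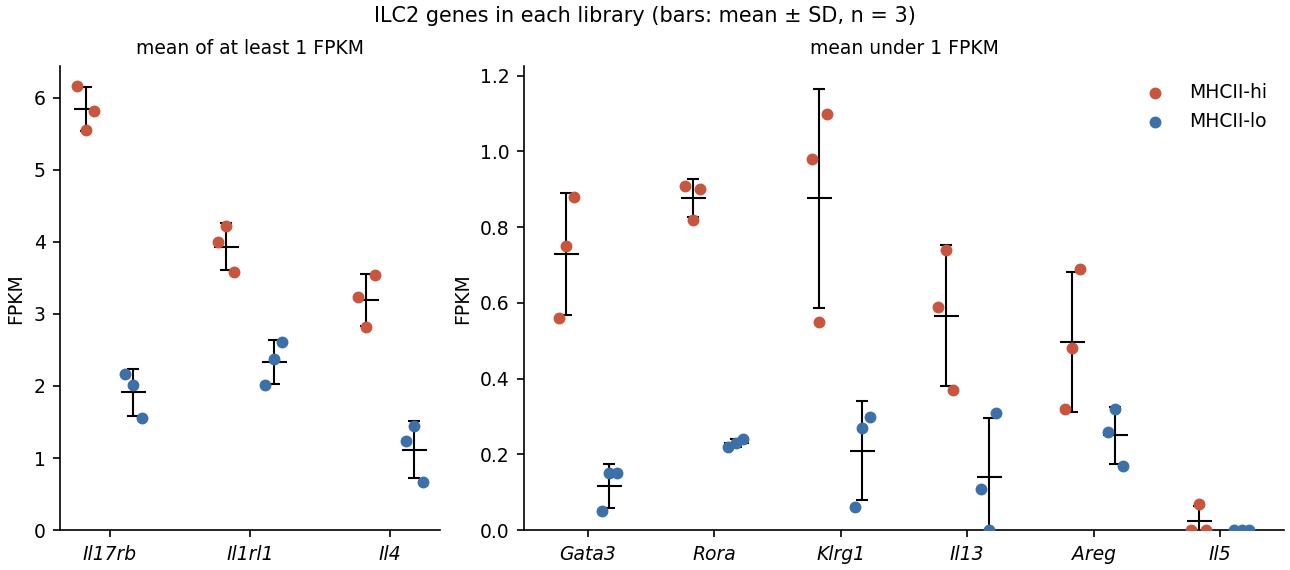
FPKM of the 9 ILC2 genes in each library, MHCII-hi (red) and MHCII-lo (blue), with black bars for the mean ± SD (n = 3). The left panel holds the 3 genes whose mean reached 1 FPKM and the right panel the 6 below it, on a smaller scale; the groups overlap for Areg and Il5.

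The lineage factors were both low and both higher in MHCII-hi cells. Gata3 (ENSMUSG00000015619.10, GRCm38 chromosome 2, 9857078 to 9890034, minus strand) encodes the zinc finger factor that establishes type 2 lymphocyte identity. It was at 0.56, 0.75 and 0.88 FPKM in MHCII-hi and at 0.05, 0.15 and 0.15 FPKM in MHCII-lo. The groups were apart, and the mean was 6.26-fold higher in MHCII-hi. The log2 change was 0.63 (standard error 0.09, adjusted p = 0.00282 by limma with no minimum), on the log2(FPKM + 1) scale, which compresses changes at such levels. Rora (ENSMUSG00000032238.17, chromosome 9, 68653786 to 69388246, plus strand) encodes RORα. It was at 0.91, 0.82 and 0.90 FPKM in MHCII-hi and at 0.22, 0.23 and 0.24 FPKM in MHCII-lo. Libraries of a group lay closer together for Rora than for Gata3. Fragments were not estimated for either gene, because their coding transcripts differ too much in length. The mean of Rora was 3.81-fold higher in MHCII-hi (log2 change 0.61, standard error 0.06, adjusted p = 5.42e-04 by limma with no minimum). In bulk RNA, fewer cells of a type and less RNA per cell cannot be told apart, and this holds for every gene below.

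The alarmin receptors were the most abundant of the 9 genes. Il17rb (ENSMUSG00000015966.17, chromosome 14, 29996135 to 30008896, minus strand) encodes the chain that binds interleukin-25. It was at 6.16, 5.55 and 5.82 FPKM in MHCII-hi and at 2.17, 2.02 and 1.55 FPKM in MHCII-lo. The lowest MHCII-hi library was well above the highest MHCII-lo library. The mean was 3.05-fold higher in MHCII-hi, with a log2 change of 1.24 (standard error 0.09, adjusted p = 4.26e-05 by limma), and 3.24% of tested genes had a larger rise. Most of its length overlaps Actr8, a gene of the opposite strand at 4.14 ± 0.139 FPKM in MHCII-hi and 3.37 ± 0.0954 FPKM in MHCII-lo (SD, n = 3). Whether strand was used in counting is not given in the sources used here, so reads in the shared stretch could belong to either gene.

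Il1rl1 (ENSMUSG00000026069.15, chromosome 1, 40429570 to 40465415, plus strand) encodes the interleukin-33 receptor ST2. It was at 4.0, 4.22 and 3.58 FPKM in MHCII-hi and at 2.01, 2.37 and 2.61 FPKM in MHCII-lo. The groups were apart, but the step was smaller than for Il17rb. The mean was 1.69-fold higher in MHCII-hi (log2 change 0.57, standard error 0.09, adjusted p = 0.0014 by limma), and 8.51% of tested genes rose more. The gene is known for a distal and a proximal start with different use among cell types, and the deposited gene values sum over its transcripts. Both starts are shown because the values cannot tell them apart. The 250 bases before each start in RefSeq (GRCm38.p6, plus strand) are given 5′ to 3′, at chr1:40429320-40429569 for the distal and chr1:40439379-40439628 for the proximal start, with the letters GATAA or their reverse complement TTATC in capitals, the core of motifs that GATA factors bind.
Il1rl1 distal: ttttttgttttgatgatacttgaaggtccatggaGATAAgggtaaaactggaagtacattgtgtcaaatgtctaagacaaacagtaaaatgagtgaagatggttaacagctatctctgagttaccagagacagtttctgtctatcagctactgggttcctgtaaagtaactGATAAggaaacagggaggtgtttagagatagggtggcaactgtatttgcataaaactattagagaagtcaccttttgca
Il1rl1 proximal: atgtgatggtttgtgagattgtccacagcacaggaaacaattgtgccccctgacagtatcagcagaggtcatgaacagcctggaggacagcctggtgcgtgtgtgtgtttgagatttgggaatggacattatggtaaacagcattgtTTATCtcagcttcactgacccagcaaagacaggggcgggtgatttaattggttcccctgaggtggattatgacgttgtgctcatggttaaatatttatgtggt
The distal window holds these letters at 2 places, -216 and -79 from the start, and the proximal window at 1 place, -103. GATAA or TTATC stood in 22.6% of the 32851 RefSeq promoter windows of the same length. Other forms of the GATA motif were not searched or marked, and the distal window also holds GATAG and its reverse complement CTATC. The letters AGGTCA, the core that RORα binds, or their reverse complement TGACCT, stood once in the proximal and nowhere in the distal window, and in 14.0% of all windows. These matches describe the sequence and say nothing of use in these cells.

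The chains of the receptors for interleukin-33, interleukin-25 and thymic stromal lymphopoietin were set side by side. Il1rap, the partner of ST2, was at 3.14, 3.01 and 3.18 FPKM in MHCII-hi and at 4.91, 4.47 and 4.37 FPKM in MHCII-lo. It fell in MHCII-hi (log2 change -0.44, standard error 0.06, adjusted p = 5.56e-04 by limma), against the rise of Il1rl1. Il17ra, the partner of IL-17RB and a chain of several interleukin-17 receptors, was at 19.5 ± 0.305 FPKM in MHCII-hi and 20.8 ± 0.0306 FPKM in MHCII-lo (SD, n = 3). Its log2 change of -0.091 (limma adjusted p = 0.0266) became 0.078 (adjusted p = 0.0483) when libraries were scaled without immunoglobulin genes, so it has no settled direction. For the receptor of thymic stromal lymphopoietin, Il7r was at 6.48, 6.54 and 6.14 FPKM in MHCII-hi and at 1.93, 1.59 and 2.01 FPKM in MHCII-lo. Its log2 change was 1.38 (standard error 0.07, adjusted p = 7.56e-06 by limma). Crlf2, the chain specific to that receptor, was at 20.44, 19.01 and 19.88 FPKM in MHCII-hi and at 20.44, 21.28 and 22.66 FPKM in MHCII-lo, and did not pass (log2 change -0.11, limma adjusted p = 0.0791).

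Ratios within a library are free of any scaling between libraries. Il1rl1 over Il1rap was 1.27, 1.40 and 1.13 in MHCII-hi and 0.409, 0.530 and 0.597 in MHCII-lo. Il17rb over Il17ra was 0.319, 0.288 and 0.294 in MHCII-hi and 0.104, 0.0970 and 0.0747 in MHCII-lo. Il7r over Crlf2 was 0.317, 0.344 and 0.309 in MHCII-hi and 0.0944, 0.0747 and 0.0887 in MHCII-lo. In each of these 3 ratios the groups were apart, with the MHCII-hi libraries higher. The two-sided exact permutation p was 0.1 for each, the smallest that 3 libraries against 3 can give, and 0.12 after Benjamini-Hochberg adjustment over the 6 ratios computed.

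**Figure D2:**
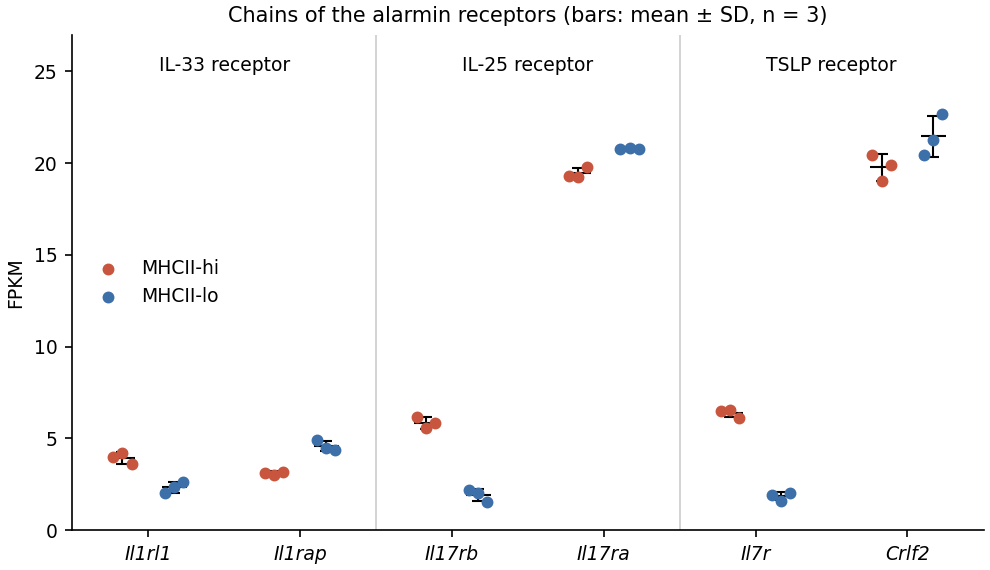
FPKM of the chains of the IL-33, IL-25 and TSLP (thymic stromal lymphopoietin) receptors in each library, MHCII-hi (red) and MHCII-lo (blue), with bars for the mean ± SD (n = 3). Il1rl1, Il17rb and Il7r lie higher in MHCII-hi, while Il1rap lies lower and the groups overlap for Crlf2. Il17ra lies lower by a log2 change of -0.091, which became 0.078 once immunoglobulin genes were left out of the scaling.

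The type 2 cytokine genes sit in 1 locus on chromosome 11, and they differed in level. Il4 (ENSMUSG00000000869.12, 53602982 to 53618669, minus strand) encodes the cytokine that drives class switching to IgE. It was at 3.23, 2.82 and 3.54 FPKM in MHCII-hi and at 1.24, 1.44 and 0.67 FPKM in MHCII-lo. The groups were apart and the mean was 2.86-fold higher in MHCII-hi (log2 change 1.0, standard error 0.15, adjusted p = 0.00132 by limma), with 4.15% of tested genes rising more. The transcript is short, and these values stand for an estimated 34.8 to 63.7 fragments in MHCII-hi and 9.95 to 21 in MHCII-lo libraries. Il13 (ENSMUSG00000020383.1, 53631324 to 53634702, minus strand) encodes a cytokine of mucus production and worm expulsion. It was at 0.59, 0.74 and 0.37 FPKM in MHCII-hi and at 0.11, 0 and 0.31 FPKM in MHCII-lo, from an estimated 10.3 to 23.2 fragments in MHCII-hi and 0 to 9.17 in MHCII-lo. The gap between the groups was narrow. Its log2 change of 0.46 (standard error 0.13, adjusted p = 0.0454 by limma with no minimum) passed in only 3 of 9 further alternatives of that fit, where the adjusted p ran between 0.0286 and 0.135.

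Il5 (ENSMUSG00000036117.2, 53720794 to 53725106, plus strand), the growth and survival factor of eosinophils and a hallmark product of ILC2, was near 0 in both groups. It was at 0, 0.07 and 0 FPKM in MHCII-hi, where 0.07 stands for an estimated 2.20 fragments, and was listed at 0 in all 3 MHCII-lo libraries. The fit with no minimum gave a log2 change of 0.033 (standard error 0.031, adjusted p = 0.504 by limma), and at this depth no difference was detectable. Rad50, a DNA repair gene between Il13 and Il5, was at 13.1 ± 0.269 FPKM in MHCII-hi and 12.9 ± 0.562 FPKM in MHCII-lo (SD, n = 3), with a log2 change of 0.020 (limma adjusted p = 0.688). Within the locus there was thus no detectable difference at Rad50, nor at Il5, which was too low to show one. The mean was 2.86-fold higher in MHCII-hi for Il4 and 4.05-fold for Il13, the latter on few fragments.

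**Figure D3:**
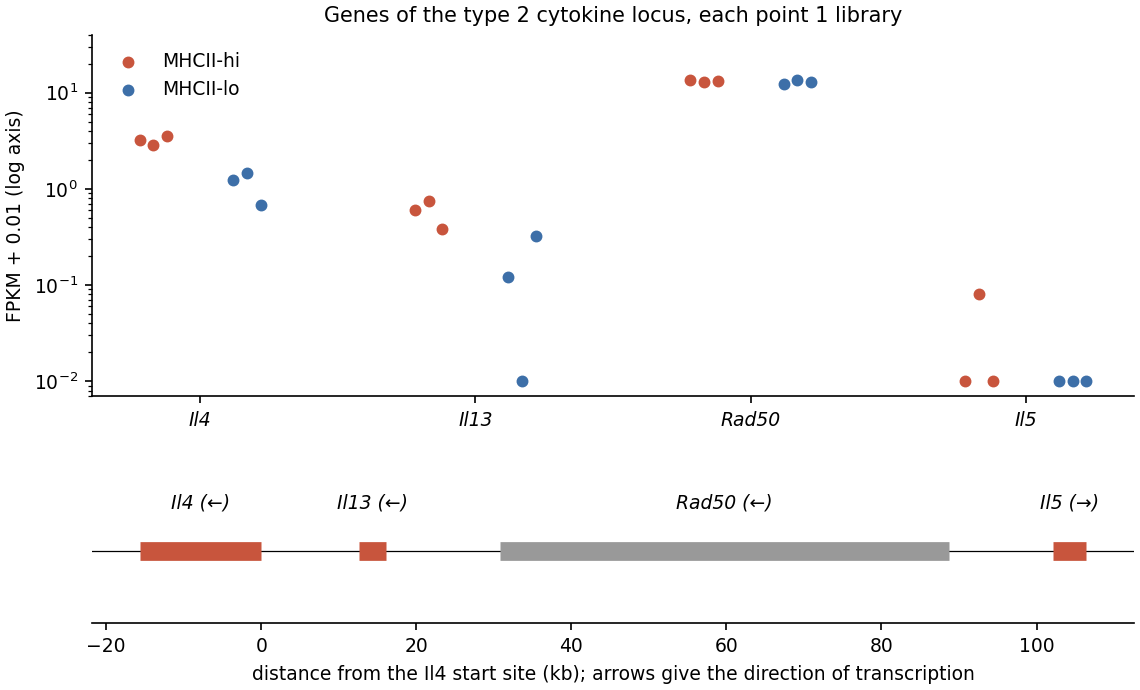
Above, FPKM + 0.01 on a log axis for Il4, Il13, Rad50 and Il5 in each library, MHCII-hi (red) and MHCII-lo (blue); points at the bottom are libraries listed at 0. Below, the 4 genes to scale by distance from the Il4 start site, cytokine genes in red and Rad50 in grey; the MHCII-hi libraries lie above the MHCII-lo libraries for Il4 and Il13.

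The 3 cytokine promoters are shown to describe the sequence before neighbouring genes of the locus. The cause of their different levels was not tested. Each is the 250 bases before the RefSeq start (GRCm38.p6) on the strand of the gene, at chr11:53618666-53618915 for the upstream of the 2 Il4 starts (minus strand), chr11:53634703-53634952 for Il13 (minus strand) and chr11:53720544-53720793 for Il5 (plus strand), with GATAA or TTATC in capitals.
Il4: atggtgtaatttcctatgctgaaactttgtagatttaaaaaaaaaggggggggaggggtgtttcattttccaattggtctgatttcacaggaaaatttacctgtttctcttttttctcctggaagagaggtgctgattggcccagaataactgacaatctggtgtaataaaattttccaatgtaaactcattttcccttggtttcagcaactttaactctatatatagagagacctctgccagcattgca
Il13: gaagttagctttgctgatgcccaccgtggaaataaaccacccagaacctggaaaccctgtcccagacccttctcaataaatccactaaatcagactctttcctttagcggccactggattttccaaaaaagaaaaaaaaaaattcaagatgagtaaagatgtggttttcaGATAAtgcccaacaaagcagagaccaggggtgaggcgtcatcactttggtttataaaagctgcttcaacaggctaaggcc
Il5: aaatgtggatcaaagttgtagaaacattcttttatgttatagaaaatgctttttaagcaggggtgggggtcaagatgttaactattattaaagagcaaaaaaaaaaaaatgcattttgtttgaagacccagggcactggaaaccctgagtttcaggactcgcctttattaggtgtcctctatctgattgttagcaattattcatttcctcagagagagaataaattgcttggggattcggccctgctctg
The Il13 window holds these letters at 1 place, -80 from its start, and the Il4 and Il5 windows do not hold them. Other forms of the GATA motif were not searched or marked, and the Il5 window holds CTATC, which is GATAG on the other strand. The Il5 window is thus not shown to lack a GATA motif. AGGTCA and TGACCT stood in none of the 3. Promoter entries were found for 8 of the 9 ILC2 genes, 10 windows in all. GATAA or TTATC stood in the windows of Il1rl1 and Il13 and in no other of the 10.

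The remaining members were low. Klrg1 (ENSMUSG00000030114.8, chromosome 6, 122270596 to 122282882, minus strand) encodes an inhibitory receptor for cadherins that marks mature ILC2 and effector NK and T cells. It was at 0.98, 0.55 and 1.10 FPKM in MHCII-hi and at 0.06, 0.27 and 0.30 FPKM in MHCII-lo. The groups were apart and the mean was 4.17-fold higher in MHCII-hi (log2 change 0.63, standard error 0.14, adjusted p = 0.0213 by limma with no minimum). The Klrg1 values stand for an estimated 15.9 to 45.1 fragments in MHCII-hi and 1.92 to 10.4 in MHCII-lo. The call was less firm than for Gata3 and Rora: it held in 4 of 9 further alternatives, with adjusted p between 0.00955 and 0.0687, whereas Gata3 and Rora held in all 9 of theirs. Areg (ENSMUSG00000029378.5, chromosome 5, 91139599 to 91148432, plus strand) encodes amphiregulin, the ligand of the epidermal growth factor receptor through which ILC2 act in tissue repair. It was at 0.32, 0.48 and 0.69 FPKM in MHCII-hi and at 0.26, 0.32 and 0.17 FPKM in MHCII-lo. The groups met at 0.32 FPKM, and the log2 change of 0.25 (SE 0.10) did not pass (limma adjusted p = 0.134 with no minimum). The Areg values stand for an estimated 11.9 to 19.4 fragments in MHCII-hi and 5.07 to 9.38 in MHCII-lo.

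The order of the genes differed between the groups at its top. In MHCII-hi the order by mean FPKM was Il17rb, Il1rl1, Il4, Klrg1 and Rora at the same mean, Gata3, Il13, Areg and Il5. The libraries of Il17rb, Il1rl1, Il4 and the next gene were apart from one another, those of each neighbouring pair between Klrg1 and Areg overlapped, and Il5 was below the rest. In MHCII-lo the order was Il1rl1, Il17rb, Il4, Areg, Rora, Klrg1, Il13, Gata3 and Il5, with overlap between Il1rl1 and Il17rb and between all neighbours from Areg to Gata3. Il17rb over Il1rl1 within a library was 1.54, 1.32 and 1.63 in MHCII-hi and 1.08, 0.852 and 0.594 in MHCII-lo. Il4 over Il1rl1 was 0.807, 0.668 and 0.989 in MHCII-hi and 0.617, 0.608 and 0.257 in MHCII-lo. Both ratios were apart (two-sided exact permutation p = 0.1, adjusted 0.12). Il17rb over Il4 was 1.91, 1.97 and 1.64 in MHCII-hi and 1.75, 1.40 and 2.31 in MHCII-lo. There the groups overlapped (exact permutation p = 1), and the difference of the log2 ratios was 0.040. Relative to Il1rl1, Il17rb and Il4 were thus higher in each MHCII-hi library than in any MHCII-lo library, while their level relative to one another showed no such order.

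**Figure D4:**
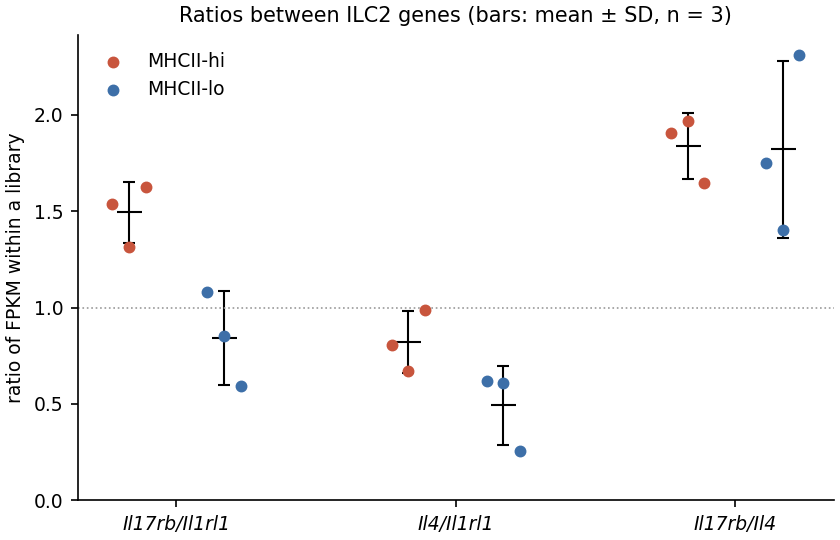
Ratios of FPKM between pairs of the 3 better expressed ILC2 genes within each library, MHCII-hi (red) and MHCII-lo (blue), with bars for the mean ± SD (n = 3) and a dotted line at equal levels. Il17rb/Il1rl1 and Il4/Il1rl1 are higher in every MHCII-hi library, and Il17rb/Il4 overlaps.

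Other genes of the ILC2 pathway, 72 in 4 lists, divided in direction. In all, 68 had values and 47 reached the minimum. Of these 23 rose, 15 fell and 9 did not pass, with a median log2 change of 0.077, against -0.037 over all tested genes. With immunoglobulin genes left out of the scaling, 29 rose and 10 fell, as all genes shifted to 40.6% higher and 17.5% lower. Among the 9 tested development factors 5 rose, 2 fell and 2 did not pass. Zbtb16, which encodes the factor PLZF of innate lymphoid progenitors, was at 4.71 ± 0.183 FPKM in MHCII-hi and 1.97 ± 0.0757 FPKM in MHCII-lo (SD, n = 3). Tcf7, which encodes a factor that ILC2 development needs in mice, was at 6.84, 7.36 and 6.79 FPKM in MHCII-hi and at 3.58, 3.48 and 3.07 FPKM in MHCII-lo. Ets1 rose as well, with a log2 change of 0.62. Gfi1, a zinc finger repressor that supports ILC2 in mice, fell and was at 23.4 ± 1.80 FPKM in MHCII-hi and 33.2 ± 2.15 FPKM in MHCII-lo (SD, n = 3). Lmo4, which encodes a LIM domain cofactor, also fell, at 22.08, 21.31 and 20.21 FPKM in MHCII-hi and at 26.87, 27.38 and 26.61 FPKM in MHCII-lo. Id2, which all innate lymphoid cells require, was at 31.0 ± 0.773 FPKM in MHCII-hi and 29.3 ± 0.176 FPKM in MHCII-lo (SD, n = 3) and did not pass (limma adjusted p = 0.0551). It passed when libraries were scaled without immunoglobulin genes (limma adjusted p = 3.40e-04).

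Of the 14 tested genes for receptors and surface molecules, 8 rose, 3 fell and 3 did not pass. The 3 that fell were Ltb4r1, Cysltr1 and Ramp1, with log2 changes of -0.42, -0.42 and -0.16 (limma adjusted p = 1.78e-05, 0.00431 and 0.027). Ltb4r1 was at 39.4 ± 0.835 FPKM in MHCII-hi and 53.3 ± 0.525 FPKM in MHCII-lo (SD, n = 3). Thy1, a surface glycoprotein of T cells and innate lymphoid cells, had a log2 change of 1.01. Il2rg, the chain shared by the receptors of several interleukins, was at 28.3 ± 1.42 FPKM in MHCII-hi and 13.4 ± 1.04 FPKM in MHCII-lo (SD, n = 3). Below the minimum, the costimulatory receptor Icos was at 1.19, 1.24 and 1.09 FPKM in MHCII-hi and at 0.40, 0.31 and 0.47 FPKM in MHCII-lo. Ptgdr2, which encodes the prostaglandin receptor CRTH2, was at 0.24, 0.14 and 0.18 FPKM in MHCII-hi and at 0, 0 and 0.05 FPKM in MHCII-lo. Nmur1, the neuromedin U receptor that among lymphocytes is typical of ILC2, was at 0.05, 0 and 0 FPKM in MHCII-hi and at 0.08, 0 and 0 FPKM in MHCII-lo. Icos and Ptgdr2 were thus higher in every MHCII-hi library, whereas Nmur1 was near 0 throughout.

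Among 4 tested genes listed under other effectors, a list not confined to secreted products, 3 rose (Xcl1, Il6 and Hes1) and 1 fell (Dgat2). The chemokine gene Xcl1 was at 14.1 ± 0.926 FPKM in MHCII-hi and 3.47 ± 0.582 FPKM in MHCII-lo, and Hes1, a Notch target, at 7.76 ± 0.764 FPKM in MHCII-hi and 0.620 ± 0.251 FPKM in MHCII-lo (SD, n = 3). Dgat2, an enzyme of triglyceride synthesis, was at 7.67 ± 0.642 FPKM in MHCII-hi and 24.6 ± 0.820 FPKM in MHCII-lo (SD, n = 3). Csf2, which encodes the growth factor GM-CSF, was at 0.25, 0.22 and 0.19 FPKM in MHCII-hi and was listed at 0 in all MHCII-lo libraries. Of the 20 tested genes for alarmins and type 2 signalling 7 rose, 9 fell and 4 did not pass, with a median log2 change of -0.053. Il13ra1, a chain of the interleukin-13 receptor, was at 8.12 ± 0.444 FPKM in MHCII-hi and 17.3 ± 0.662 FPKM in MHCII-lo, and Il4ra, which both the interleukin-4 and interleukin-13 receptors contain, at 11.2 ± 0.327 FPKM in MHCII-hi and 17.7 ± 0.944 FPKM in MHCII-lo (SD, n = 3). Both fell, as did Csf2rb, the shared chain of the interleukin-3, interleukin-5 and GM-CSF receptors, and Myd88, the adaptor below ST2. Traf3ip2, which encodes the adaptor of interleukin-17 receptors, rose (log2 change 0.80, standard error 0.11, adjusted p = 8.73e-04 by limma). Il5ra, the interleukin-5 receptor chain of eosinophils, was at 5.58 ± 0.140 FPKM in MHCII-hi and 1.68 ± 0.177 FPKM in MHCII-lo (SD, n = 3). The alarmin Il33 was at 0.03, 0 and 0 FPKM in MHCII-hi and listed at 0 in every MHCII-lo library.

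Markers of other cells that use these genes were counted beside them. Among all tested genes 25.5% were higher in MHCII-hi, or 40.6% with immunoglobulin genes left out of the scaling. Some listed genes reached the minimum only through MHCII-hi, as Eomes of the NK list did, at 1.80 FPKM there and 0.277 FPKM in MHCII-lo. In the fit with no minimum 14.6% of all genes rose, beside 18 of 18 of the T cell list, 14 of 15 of the NK list and 10 of 10 of the dendritic cell list. The summed level of the 9 ILC2 genes ran between 16.0 and 16.9 FPKM in MHCII-hi and between 6.0 and 6.80 FPKM in MHCII-lo, 2.62-fold higher in MHCII-hi. All 11 tested T cell genes rose, and the sum of the 18 listed ran between 78.3 and 82.4 FPKM in MHCII-hi and between 23.8 and 26.6 FPKM in MHCII-lo. Here and below, the genes that led a list are those with its smallest limma p, not its highest level. The T cell list was led by Cd28, Trbc2 and Trbc1. Trac, the constant region gene of the T cell receptor alpha chain, was at 10.6 ± 0.829 FPKM in MHCII-hi and 2.74 ± 0.691 FPKM in MHCII-lo (SD, n = 3). Of 15 tested genes of NK cells and group 1 innate lymphoid cells (ILC1) 14 rose, and Nkg7 did not pass. The sum ran between 226 and 236 FPKM in MHCII-hi and between 167 and 177 FPKM in MHCII-lo, most of it from Nkg7. Il2rb, Klrk1 and Gzma led the list. Of 4 tested regulatory T cell genes 3 rose, Ctla4 and Tigit among them, and Il1r2, which neutrophils also express, fell. The list's sum ran between 55.8 and 58.0 FPKM in MHCII-hi and between 130 and 136 FPKM in MHCII-lo. Most of that sum came from Il1r2, with a mean of 41.4 FPKM in MHCII-hi and 129.9 FPKM in MHCII-lo. The list's defining factor Foxp3 was at 0.26, 0.25 and 0.31 FPKM in MHCII-hi and at 0.03, 0.04 and 0.07 FPKM in MHCII-lo.

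Basophil and eosinophil genes were far more abundant than the ILC2 genes. Of the 10 tested basophil and mast cell genes 9 rose and 1 did not pass, and the sum of the 15 genes with values ran between 1018 and 1034 FPKM in MHCII-hi and between 573 and 592 FPKM in MHCII-lo. By smallest limma p, the basophil proteases Mcpt8 and Prss34 and the factor Gata2 led them. The connective tissue mast cell proteases Mcpt4 and Tpsb2 were listed at 0 in all 6 libraries, and Cma1 reached at most 0.16 FPKM. All 9 eosinophil genes rose, with sums between 7745 and 7900.5 FPKM in MHCII-hi and between 2828 and 2881 FPKM in MHCII-lo, led by Ear6, Prg2 and Ear1. The ILC3 list had 1 tested gene, Ltb, which did not pass. The sum of the list ran between 8.50 and 10.4 FPKM in MHCII-hi and between 6.54 and 7.82 FPKM in MHCII-lo. All 8 tested dendritic cell genes rose, led by Cd209a, Clec10a and Flt3, with sums between 79.5 and 82.8 FPKM in MHCII-hi and between 30.2 and 31.1 FPKM in MHCII-lo. All 10 tested B cell and plasma cell genes rose, led by Igkc, Jchain and Pou2af1, with sums between 19717 and 20252 FPKM in MHCII-hi and between 453 and 468 FPKM in MHCII-lo. All 10 neutrophil genes fell, led by Mmp8, Lcn2 and S100a9, with sums between 18192 and 18471 FPKM in MHCII-hi and between 40697 and 41270 FPKM in MHCII-lo. The part of these other cell types in the levels of the ILC2 genes was not tested.

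**Figure D5:**
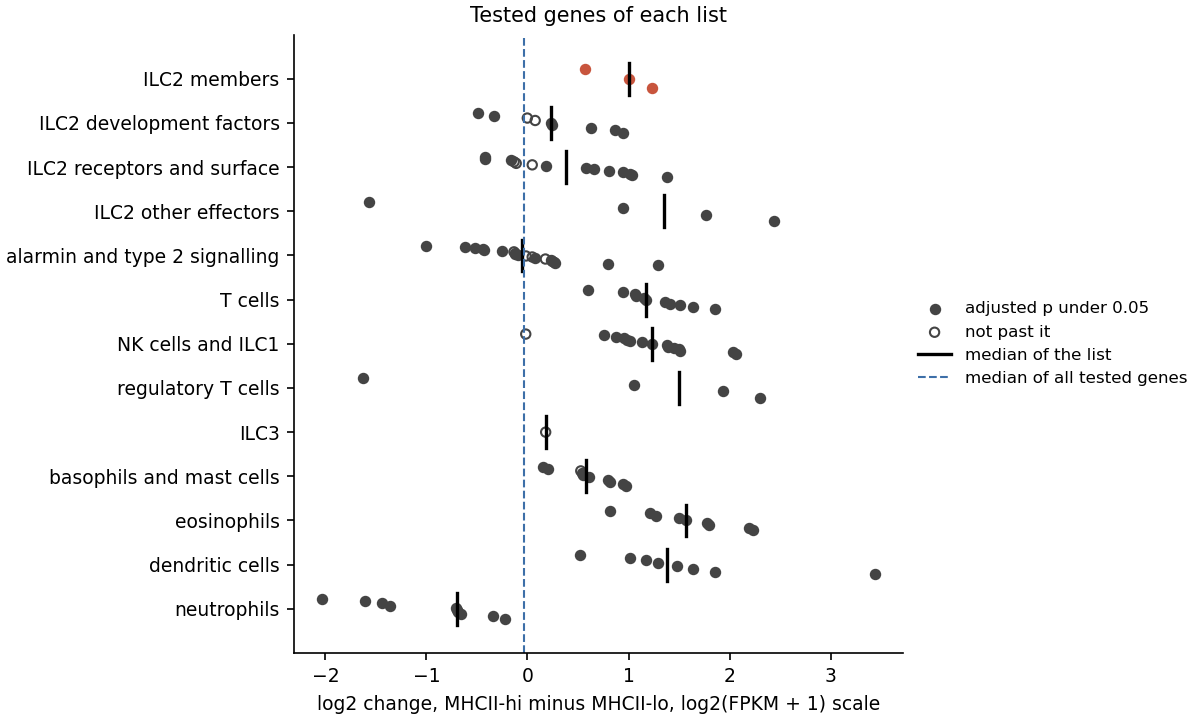
Log2 change (MHCII-hi minus MHCII-lo, log2(FPKM + 1) scale) of each tested gene, by list, with filled points for adjusted p under 0.05 in limma, open points for the rest, a black line at each list's median and a dashed line at the median of all tested genes, -0.037. The 3 tested ILC2 genes (red) lie between 0.57 and 1.24, and genes below 1 FPKM are not shown.

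The tested genes whose profiles lay closest to the ILC2 genes were found by the root mean square difference of log2(FPKM + 1) values centred over the 6 libraries. For Il1rl1 they were Ccdc134, with a difference of 0.0409, and Myh10, with 0.0506. For Il17rb they were Ccrl2, with 0.0377, and Ifi205, with 0.0548. For Il4 they were Tubb2b, with 0.0854, and Tbx21, with 0.0862. With 6 libraries in 2 groups, likeness rests mostly on the size of the step between the groups.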

How the data were processed

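Stranded mRNA libraries came from RNA of sorted cells, per the labels' protocols. Tools named in the submitters' processing notes are HISAT2, StringTie and fastp, with the build GRCm38 (mm10). Their versions and settings were not given in the sources used here, nor was the annotation. The authors deposited 1 table per library, whose values were read as FPKM from their range and sums (332289 to 383600 per library), since the headers name no unit. Such values are relative to a library's total.

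Of 30803 rows, 70 with a repeated symbol were dropped, keeping the row with the highest mean. The test was limma (version 3.58.1, R 4.3.3) with an intensity trend on log2(FPKM + 1), MHCII-hi minus MHCII-lo, two-sided, with Benjamini-Hochberg adjustment over the 12110 genes whose mean reached 1 FPKM, and was tested on simulated data. Single values and ratios used exact permutation tests. Genes whose fit had no minimum were adjusted over 27171 genes. Depth was estimated from the smallest steps of single-exon genes of 100 to 1000 bases, and fragments from it and the longest coding transcript in GENCODE M21; these are approximations. Promoters come from RefSeq (GRCm38.p6).

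The members, lists and tests were chosen with earlier results of these data known. Named are all members, the class II genes, the 3 genes with the smallest p of each list and the closest profiles. Other genes, and the receptor ratios, were chosen after their values were seen.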

Additional observations from a re-analysis of the deposited data

How the results depend on the processing

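Il17rb, Il1rl1 and Il4 kept their direction and stayed past the threshold under the 14 alternatives that tested them, with log2 changes of 1.14 to 1.57, 0.46 to 0.74 and 0.84 to 1.49 and limma adjusted p of at most 0.00799. With a minimum of 5 FPKM none of the 9 ILC2 genes was tested, so 0 rose; with no minimum 7 rose. Of the 6 genes below the minimum, none passed by the exact permutation test, and 4 passed in the fit with no minimum. The further alternatives of that fit were chosen after seeing the data: 3 passed with a pseudocount of 0.1, 4 when scaled without immunoglobulin genes, 2 with a replicate block, and 2 to 4 with 1 library left out. Klrg1 was lost without MHCII-hi replicate 1 or 3 or MHCII-lo replicate 1 or 2, and Il13 without MHCII-hi replicate 1 or 2 or MHCII-lo replicate 1 or 2. In the fit with no minimum and the replicate block, the adjusted p was 0.135 for Il13 and 0.0523 for Klrg1; with a pseudocount of 0.1, Il13 had 0.0703. Replicate numbers did not pair the libraries: deviations of same-numbered libraries correlated at -0.092, -0.0036 and -0.035. With the minimum of 1 FPKM, the replicate block kept 3 ILC2 genes higher, and 2856 of all genes higher and 3782 lower. Over all genes 3084 were higher and 4009 lower; a minimum of 5 FPKM gave 1792 higher, and scaling without immunoglobulin genes gave 4934 higher and 2127 lower and moved the median of all genes to 0.11. Of other ILC2 pathway genes 15 rose with a minimum of 5 FPKM, where fewer genes were tested. Il17ra and Crlf2 reversed to 0.078 and 0.057 when scaled without immunoglobulin genes; the cause was not tested. Depth limits Il5, Il13, Areg and Klrg1, which rest on few fragments in MHCII-lo, and also Il4, at an estimated 9.95 to 21 fragments there. Fragments were not estimated for Gata3 and Rora, whose coding transcripts differ in length (674 to 3215 bases for Gata3). How few fragments their low MHCII-lo values stand for is therefore not known.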
